A study of Mus musculus with 6 samples.

Results

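Transcript levels of 10 genes for subunits of cohesin (Smc1a, Smc3, Rad21, Stag1 and Stag2) and of condensin I (Smc2, Smc4, Ncapd2, Ncapg and Ncaph) were compared in mouse haematopoietic stem cells before and after induction of ETV6-RUNX1, a leukaemia-associated fusion of transcription factors. The genes were picked by name from the 55471 gene IDs of the table. Each had 1 row, and all 10 were among the 13470 genes that averaged 1 TPM or more and were tested. TPM is transcript abundance corrected for gene length and scaled to the same total in every library. The 3 uninduced libraries came from ETV6-RUNX1 mice without doxycycline. The 3 induced libraries came from mice of the same genotype given doxycycline in food for 2 weeks. Doxycycline without the fusion was not analysed here, so its part cannot be told apart from that of the fusion. Age and the promoter that drives the fusion are not given in the sources used here. The sort took lineage-negative cells positive for Kit, Sca1 and CD150 and negative for CD48. Nothing in the labels states which libraries share a mouse, so p-values measure only the spread between these libraries.

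Cohesin and condensin are ring-shaped motors built on a pair of SMC ATPases. In cohesin, Smc1a and Smc3 form the ring, the kleisin Rad21 closes it, and Stag1 or Stag2 binds to Rad21. Cohesin holds sister chromatids together and, throughout the cell cycle, extrudes the DNA loops that fold interphase chromosomes, so that resting cells use it too. In condensin I, Smc2 and Smc4 form the ring, the kleisin Ncaph closes it, and the HEAT-repeat subunits Ncapd2 and Ncapg bind to Ncaph. Condensin I compacts chromosomes in mitosis. Haematopoietic stem cells are mostly quiescent.

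The libraries differed in scale between the groups. Nuclear protein-coding genes held 26.6% to 32.9% of the TPM in uninduced and 20.5% to 23.2% in induced libraries, and their part in the results was not tested beyond a rescaling to those genes. The median log2 change (induced minus uninduced) of all tested genes was -0.35 on the deposited TPM and 0.0032 after median-of-ratios scaling, which sets the typical gene level between libraries. With limma and a Benjamini-Hochberg adjusted p under 0.05, 10.2% of the tested genes were lower and 1.29% higher in induced cells on the deposited TPM. After median-of-ratios scaling these shares were 3.10% and 2.88%. Depth is unknown because TPM holds no counts. Among markers, Kit, Ly6a (Sca1) and Slamf1 (CD150) were present in every library and Cd48 was listed at 0 to 3.02 TPM. Ly6a rose from 14.2 ± 2.15 to 37.3 ± 6.19 TPM (SD, n = 3 libraries each) and was called on both scales. Kit fell from 172 ± 52.0 to 95.7 ± 6.48 TPM on the deposited scale (log2 change -0.81). After median-of-ratios scaling its change was -0.40 and was not called (limma adjusted p = 0.224). Slamf1 overlapped between the groups and was not called on either scale, and Cd48 was too low to test. Of 9 stem cell markers 4 were called higher and 2 lower. The summed level of 10 erythroid markers was 58.6 to 66.4 TPM in uninduced and 406 to 469 TPM in induced libraries, and none was at 0 in every library. Of 9 tested, 6 were called higher, among them 4 globin genes, while Epor, at 3.37 ± 1.24 and 0.485 ± 0.839 TPM (SD, n = 3 libraries each), did not overlap and did not pass. Of 6 B cell markers 4 were listed at 0 in all libraries, as were 2 of 3 T cell markers. The 7 granulocyte and monocyte markers summed to 163 to 199 TPM and 196 to 234 TPM, and the 5 megakaryocyte markers to 87.9 to 111 TPM and 113 to 127 TPM. Members of both lists differed in direction: Prtn3 was called higher and Mpo had a change of -1.10 that did not pass, and Pf4 and Ppbp were called higher while Itga2b and Vwf were lower without overlap and were not called. The part of these markers in the results below was not tested.

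On the deposited TPM, transcripts of Smc2, Ncapd2, Ncapg and Ncaph of condensin I were 4.27- to 6.31-fold lower in induced cells by the ratio of means, whereas Smc4 and the cohesin subunits were each 1.64- to 1.74-fold lower. After median-of-ratios scaling these ratios were 3.22 to 4.70 and 1.24 to 1.31. On the deposited TPM all 5 condensin I and 3 of the 5 cohesin members were called lower, and none higher, where 10.2% of all tested genes were called lower. After median-of-ratios scaling 2 condensin I members and 0 cohesin members were called lower by limma, where 3.10% of all genes were. The median log2 change was -1.85 over the condensin I members and -0.71 over the cohesin members, beside -0.35 over all tested genes. Groups did not overlap and were lower in induced cells for 5 condensin I and 4 cohesin members, where 28.2% of all tested genes had that pattern. In bulk samples, fewer dividing cells and less RNA per cell cannot be told apart.

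**Figure D1:**
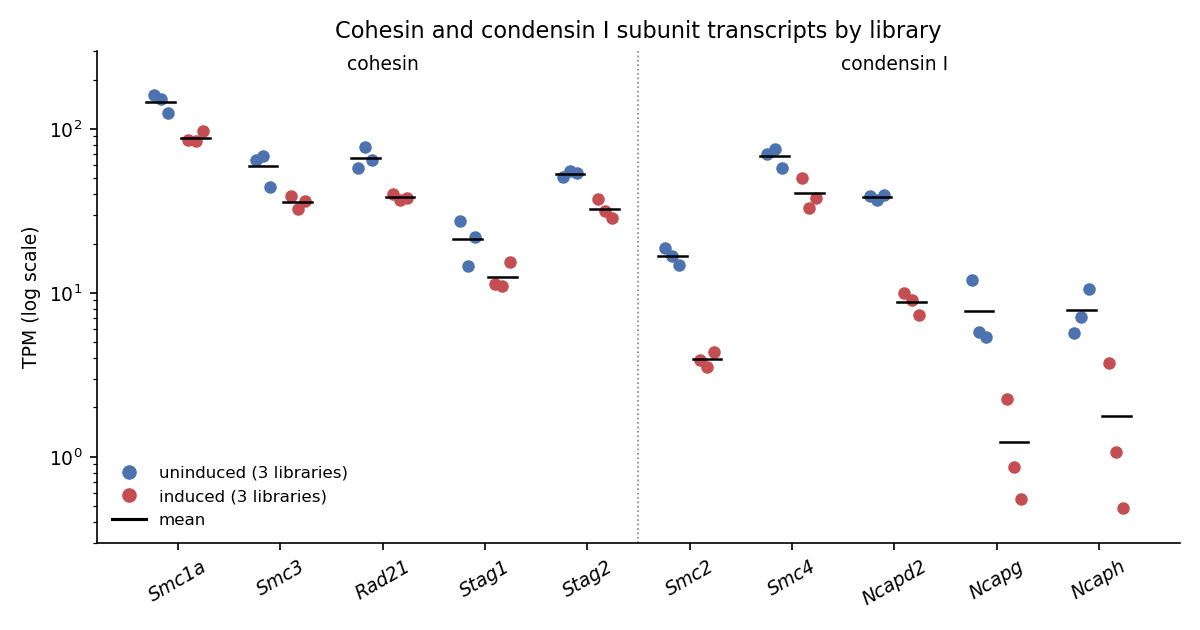
TPM of each subunit transcript (log axis) in the 3 uninduced and 3 induced libraries, with the mean of each group as a bar. The induced libraries lie below all uninduced libraries for each gene but Stag1, and the gap is widest for Smc2, Ncapd2, Ncapg and Ncaph.

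Of the condensin I ring, Smc2 (ENSMUSG00000028312, GRCm38 chromosome 4, 52439243 to 52488260) was at 18.8, 16.8 and 14.8 TPM in uninduced replicates 1 to 3 and at 3.92, 3.54 and 4.33 TPM in induced replicates 1 to 3. The induced libraries were close together and far below the lowest uninduced one. Smc2 fell by 1.85 on the log2(TPM + 1) scale (SE 0.27, limma adjusted p = 0.00415), and by 1.49 after median-of-ratios scaling (limma adjusted p = 0.0122). It was called lower under each of the 15 alternatives in processing, and 1.90% of tested genes had a change as low or lower.

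Its partner Smc4 (ENSMUSG00000034349, chromosome 3, 69004738 to 69034623) was at 70.4, 76.0 and 57.8 TPM in uninduced and 50.5, 32.8 and 38.2 TPM in induced libraries. The groups did not overlap, but induced replicate 1 came near uninduced replicate 3. Smc4 fell by 0.75 (SE 0.21, limma adjusted p = 0.0494), just inside the threshold. After median-of-ratios scaling its change was -0.35, with a 95% interval of -0.75 to 0.056 and a limma adjusted p = 0.300. It was called in 3 of 15 alternatives, and the call was lost when any library but induced replicate 1 was left out.

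The Smc4 gene also carries Mir15b and Mir16-2 on its own strand, outside its exons. These microRNA genes were listed at 0 to 1.53 TPM.

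Ncapd2 (ENSMUSG00000038252, chromosome 6, 125168007 to 125191701), a HEAT-repeat subunit, was at 38.9, 37.0 and 39.6 TPM in uninduced and 10.004, 9.04 and 7.32 TPM in induced libraries. Within each group the libraries differed little beside the gap between the groups. Ncapd2 fell by 2.02 (SE 0.22, limma adjusted p = 0.00124) and by 1.64 after median-of-ratios scaling (limma adjusted p = 0.00493). It was called lower under each of the 15 alternatives. Scarna10, a small nucleolar RNA gene by annotation type, and Gm28967 lie on the same strand and overlap its annotated exons. Both were above Ncapd2 in every library: Scarna10 was at 90.3 to 994 TPM in uninduced and 108 to 122 TPM in induced libraries, and Gm28967 at 70.3 to 1101 TPM and 1295 to 1519 TPM. Their part in the Ncapd2 value was not tested.

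Ncapg (ENSMUSG00000015880, chromosome 5, 45669919 to 45700546), the other HEAT-repeat subunit, was at 12.0, 5.76 and 5.36 TPM in uninduced and 2.25, 0.871 and 0.551 TPM in induced libraries. Uninduced replicate 1 stood above the other uninduced libraries, and induced replicate 1 above the other induced ones. Ncapg fell by 1.96 (SE 0.45, limma adjusted p = 0.0223). After median-of-ratios scaling its change was -1.67 (95% interval -2.67 to -0.67, limma adjusted p = 0.0624), and 7 of 14 alternatives called it. Leaving out uninduced replicate 1 or 2 or induced replicate 2 or 3 ended the call, with changes of -2.28 to -1.63 over the 6 libraries left out in turn. The ratio of mean TPM, 6.31 with all libraries, was 10.9 without induced replicate 1. Exons of Lcorl overlap Ncapg on the opposite strand, and Lcorl was at 0.832 to 8.96 TPM in uninduced and 1.71 to 3.16 TPM in induced libraries. The kit is stranded, but whether strand was used in counting is not given in the sources used here.

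Ncaph (ENSMUSG00000034906, chromosome 2, 127103809 to 127133954), the kleisin, was at 5.71, 7.14 and 10.6 TPM in uninduced and 3.75, 1.07 and 0.491 TPM in induced libraries. The groups did not overlap, and induced replicate 1 again lay highest among the induced libraries. Ncaph fell by 1.81 (SE 0.48, limma adjusted p = 0.0389). After median-of-ratios scaling its change was -1.51 (95% interval -2.64 to -0.37, limma adjusted p = 0.121), and 3 of 14 alternatives called it. Leaving out any library but induced replicate 1 ended the call. The ratio of mean TPM, 4.41 with all libraries, ranged from 3.24 without induced replicate 3 to 9.99 without induced replicate 1.

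Of the cohesin ring, Smc1a (ENSMUSG00000041133, chromosome X, 152016428 to 152062694) was the highest of the 10 genes, at 160, 152 and 126 TPM in uninduced and 85.2, 84.3 and 96.6 TPM in induced libraries. Every induced library was lower than every uninduced one. Smc1a fell by 0.71 on the deposited TPM (SE 0.16, limma adjusted p = 0.0233). After median-of-ratios scaling its change was -0.30 (95% interval -0.58 to -0.025, limma adjusted p = 0.193), so that the call rested on the scale. Leaving out uninduced replicate 1 or 2 or induced replicate 1 or 2 also ended it.

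Smc3 (ENSMUSG00000024974, chromosome 19, 53600398 to 53645833) was at 64.8, 68.8 and 44.4 TPM in uninduced and 39.0, 32.3 and 36.1 TPM in induced libraries. Groups did not overlap, and uninduced replicate 3 lay nearest the induced libraries. Its log2 change of -0.69 did not pass (SE 0.21, 95% interval -1.17 to -0.21, limma adjusted p = 0.0647). Without uninduced replicate 3 it passed, at -0.89 with a limma adjusted p = 0.0291. With all libraries it passed narrowly at a mean of at least 5 TPM (limma adjusted p = 0.0498). With median-of-ratios scaling the change was -0.29 (limma adjusted p = 0.359).

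The kleisin Rad21 (ENSMUSG00000022314, chromosome 15, 51962240 to 51991747) was at 58.1, 77.1 and 64.4 TPM in uninduced and 40.3, 36.7 and 37.9 TPM in induced libraries. The induced values were tightly grouped below the uninduced range. Rad21 fell by 0.77 (SE 0.18, limma adjusted p = 0.0257). After median-of-ratios scaling its change was -0.37 (95% interval -0.74 to -0.01, limma adjusted p = 0.218), and the call was also lost when uninduced replicate 2 or any induced library was left out.

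Stag2 (ENSMUSG00000025862, chromosome X, 42149317 to 42277185), the more abundant STAG transcript, was at 51.0, 55.1 and 54.0 TPM in uninduced and 37.3, 31.5 and 28.5 TPM in induced libraries. The groups were well separated, with the larger spread in the induced one. Stag2 fell by 0.71 (SE 0.19, limma adjusted p = 0.0390), with a change of -0.31 after median-of-ratios scaling (limma adjusted p = 0.368). The call was lost whichever library was left out.

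Its paralogue Stag1 (ENSMUSG00000037286, chromosome 9, 100597798 to 100959375) was at 27.3, 14.5 and 21.9 TPM in uninduced and 11.3, 10.9 and 15.3 TPM in induced libraries. Here the groups overlapped, since uninduced replicate 2 lay below induced replicate 3. The log2 change of -0.69 did not pass (SE 0.29, 95% interval -1.32 to -0.053, limma adjusted p = 0.147), nor did it under any of the 15 alternatives.

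**Figure D2:**
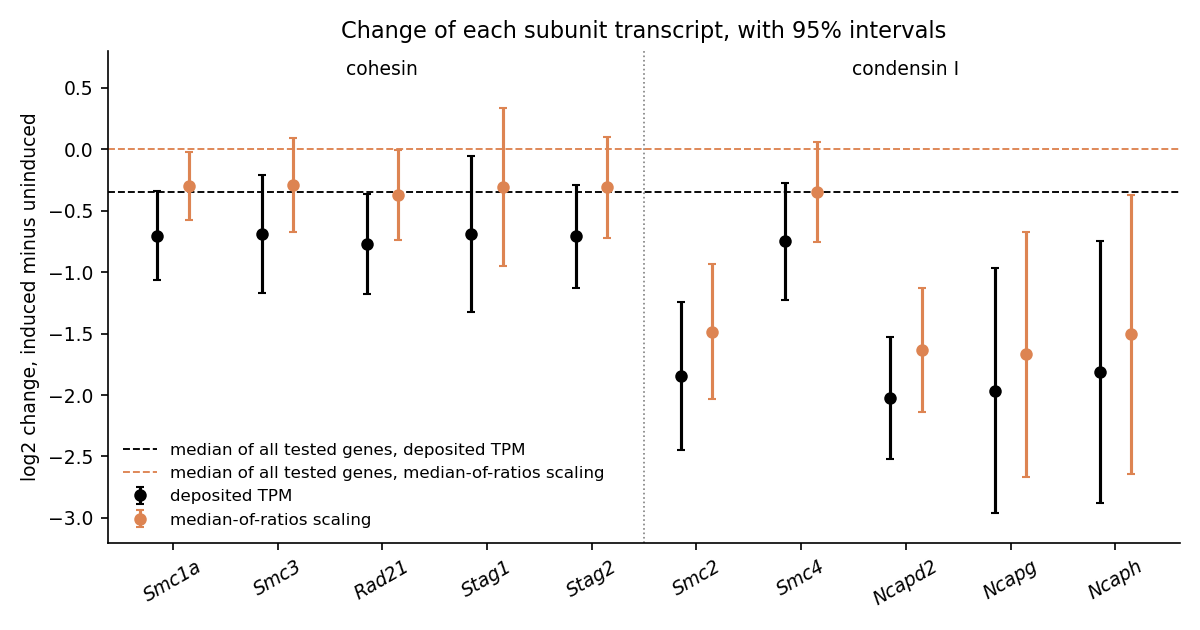
Log2 change of each subunit transcript with its 95% interval on the deposited TPM (black) and after median-of-ratios scaling (orange), with dashed lines at the median of all tested genes on each scale. The cohesin members and Smc4 lie 0.34 to 0.43 below the median on the deposited scale, and the other condensin I members 1.46 to 1.68 below it.

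The changes of the cohesin members were alike in size, from -0.77 to -0.69, and Smc4 lay within that range. Each of these 6 genes was 0.34 to 0.43 log2 units below the median of all tested genes. Between 21.7% and 26.3% of all tested genes had a change as low as theirs or lower. For Smc2, Ncapd2, Ncapg and Ncaph these values were 1.46 to 1.68 log2 units and 1.25% to 2.06%. The difference in change between the complexes was not given a test, because the members were named with earlier results known.

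A ratio of transcripts within a library does not move with the library's scale. Summed over the 5 members of each complex, condensin I stood at 0.403, 0.389 and 0.413 of cohesin in uninduced and at 0.331, 0.242 and 0.237 in induced libraries. All induced ratios lay below all uninduced ratios, and induced replicate 1 was the highest of them. The cohesin sum was 310 to 367 TPM in uninduced and 196 to 214 TPM in induced libraries, and the condensin I sum 128 to 146 TPM and 47.3 to 70.5 TPM. Smc4 made up 45.1% to 53.3% of the condensin I sum in uninduced and 69.3% to 75.0% in induced libraries. Without Smc4, a choice made after seeing the data, the ratio of condensin I to cohesin was 0.181 to 0.227 in uninduced and 0.0592 to 0.0934 in induced libraries.

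Ratios of single ring subunits separated Smc2 from the rest. Smc2 over Smc1a was 0.117, 0.111 and 0.118 in uninduced and 0.0459, 0.0420 and 0.0449 in induced libraries, without overlap. Smc4 over Smc3 overlapped, at 1.09, 1.11 and 1.30 in uninduced and 1.29, 1.02 and 1.06 in induced libraries. Ratios within cohesin overlapped between the groups: Smc1a over Smc3, chosen after seeing the data, was 2.50 ± 0.312 (SD, n = 3) and 2.49 ± 0.267 (SD, n = 3), and Stag2 over Stag1 was 2.71 ± 0.985 (SD, n = 3) and 2.68 ± 0.738 (SD, n = 3). Smc4 over Smc2, the ratio of ring partners chosen after seeing the data, was 3.75, 4.53 and 3.92 in uninduced and 12.9, 9.25 and 8.80 in induced libraries. Smc4 transcripts exceeded those of its ring partner in every library, and by more in the induced ones.

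**Figure D3:**
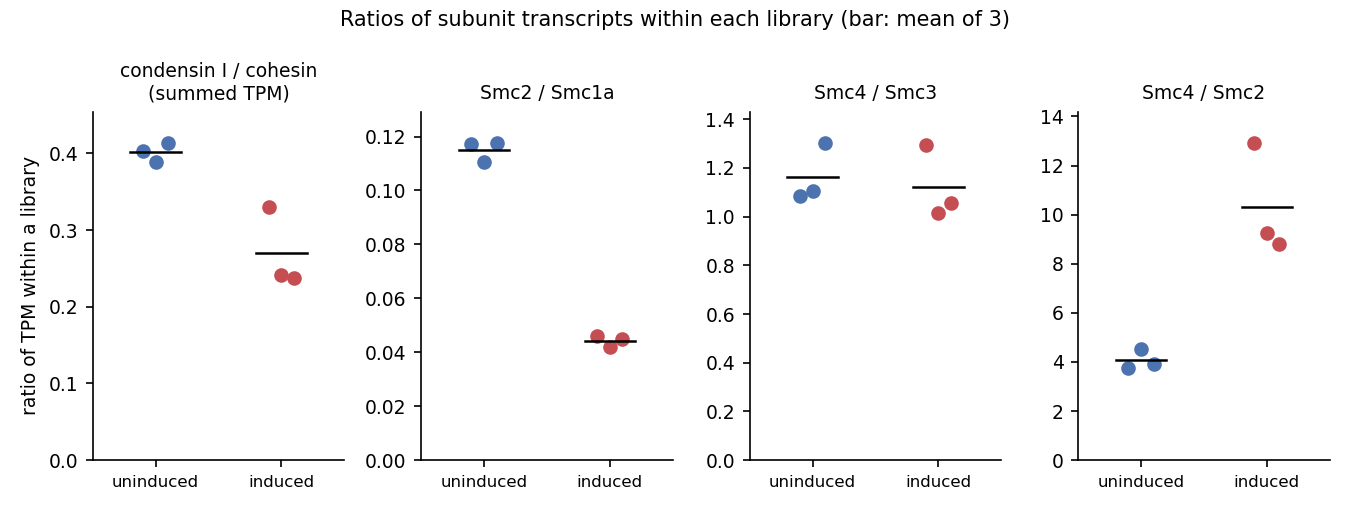
Ratios of TPM within each library, with the mean of each group of 3 as a bar and each axis starting at 0. The ratio of condensin I to cohesin and that of Smc2 to Smc1a were lower in every induced library, Smc4 to Smc3 overlapped, and Smc4 to Smc2 was higher in every induced library.

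By mean TPM, a per-length level, the order in uninduced cells was Smc1a, Smc4, Rad21, Smc3, Stag2, Ncapd2, Stag1, Smc2, Ncaph and Ncapg. Ranges over the 3 libraries overlapped between neighbours from Smc4 to Stag2, between Stag1 and Smc2, and between Ncaph and Ncapg. Overlap of ranges does not show that neighbours are equal, and their differences within a library were not tested. In induced cells the order was the same but for Ncapd2, which lay below Stag1, and neighbours from Smc4 to Stag2 again overlapped. There Stag1 and Ncapd2 did not overlap, at 10.9 to 15.3 TPM and 7.32 to 10.004 TPM, while Smc2, Ncaph and Ncapg each overlapped the next. The GC content of the genes was 36.93% to 41.88% for cohesin and 36.05% to 47.94% for condensin I, so those ranges overlapped.

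Promoters of the condensin I genes are shown to describe their sequence. Cell cycle genes are often repressed in quiescent cells through a promoter element, the CHR, whose part in the changes above was not tested. RefSeq promoter sequences (GRCm38.p6) were matched for 7 of the 10 genes and not for Smc4, Rad21 and Stag2. The CHR was searched as TTTGAA or TTCGAA on both strands in the 250 bases before the RefSeq start. It was found in 3 of 4 condensin I genes (Smc2, Ncapd2 and Ncapg, not Ncaph) and in 0 of 3 cohesin genes, beside 17.1% of 32851 promoter windows of that length. A CCAAT box, searched as CCAAT on both strands, was in the same 3 condensin I genes and in 2 of 3 cohesin genes (Smc1a and Stag1), beside 33.8% of all windows. An E2F site, searched as GCGGGAA or GCGCGAA on both strands, was in 0 of 4 and 1 of 3 (Stag1), beside 5.0% of all windows. Counted from the RefSeq start, the match was 30 bases before it in Ncapg, 123 in Ncapd2 and 145 in Smc2. In Smc2 it lies on the other strand. The RefSeq starts of Ncapd2, Ncapg and Stag1 lie inside the gene positions given above, so these distances do not count from those positions.

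The sequences read 5′ to 3′ along the gene, with the CHR letters in capitals and parts inside annotated exons left out: Smc2 on the plus strand at chr4:52438971-52439220, Ncapd2 on the minus strand at chr6:125191702-125191800, Ncapg on the plus strand at chr5:45669709-45669918, Ncaph on the minus strand at chr2:127133955-127134204 and, from cohesin, Smc3 on the plus strand at chr19:53600146-53600395.
Smc2: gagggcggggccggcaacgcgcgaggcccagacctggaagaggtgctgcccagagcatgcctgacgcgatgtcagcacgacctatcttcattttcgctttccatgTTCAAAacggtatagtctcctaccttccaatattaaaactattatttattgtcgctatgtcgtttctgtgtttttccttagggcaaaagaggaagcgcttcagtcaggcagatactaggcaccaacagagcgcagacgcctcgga
Ncapd2: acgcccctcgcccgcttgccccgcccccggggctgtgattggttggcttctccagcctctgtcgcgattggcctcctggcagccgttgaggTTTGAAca
Ncapg: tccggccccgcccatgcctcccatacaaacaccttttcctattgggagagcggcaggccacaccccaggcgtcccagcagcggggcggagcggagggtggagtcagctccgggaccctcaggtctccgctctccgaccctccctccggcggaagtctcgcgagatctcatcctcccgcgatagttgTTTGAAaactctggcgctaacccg
Ncaph: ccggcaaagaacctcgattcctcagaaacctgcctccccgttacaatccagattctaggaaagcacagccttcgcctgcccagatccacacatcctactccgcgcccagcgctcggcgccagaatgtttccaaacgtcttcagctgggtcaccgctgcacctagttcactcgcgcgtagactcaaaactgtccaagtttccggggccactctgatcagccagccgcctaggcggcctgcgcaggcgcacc
Smc3: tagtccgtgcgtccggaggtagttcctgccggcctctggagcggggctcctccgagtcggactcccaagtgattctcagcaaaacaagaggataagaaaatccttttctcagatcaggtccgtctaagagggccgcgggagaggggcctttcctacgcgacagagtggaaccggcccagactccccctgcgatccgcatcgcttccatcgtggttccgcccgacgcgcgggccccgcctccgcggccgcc
These matches are a description of letters and were not tested for binding. Of the 3 matched cohesin genes only Smc3, which held none of these motifs, is printed. Smc1a held a CCAAT box, and Stag1 a CCAAT box and an E2F site. In the partner lists, a CHR was in 3 of 3 condensin II genes, 3 of 9 chromosome partners, 2 of 5 division regulators, 4 of 6 cell cycle-wide cohesin regulators, 1 of 6 Smc5/6 and Smchd1 genes and 2 of 4 meiotic cohesin genes with a promoter sequence. These counts are per gene, whereas the shares of all windows are per window: Ncapd3 and Mau2 had 2 windows each and a CHR in 1 of them, and Sgo2a and Nsmce1 had 2 windows without one. Each of the 7 matched cohesin and condensin I genes had 1 window. Windows on 1 chromosome, which carries none of the cohesin or condensin I members, were left out of the partner counts.

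Condensin II shares Smc2 and Smc4 but has its own kleisin and HEAT-repeat subunits, and resides in the nucleus throughout the cycle. Of its 3 genes 1 was called lower, beside 10.2% of all tested genes. The kleisin Ncaph2 was at 52.5, 41.6 and 42.7 TPM in uninduced and 24.1, 24.99 and 25.8 TPM in induced libraries, and fell by 0.84 (SE 0.19, limma adjusted p = 0.0234). It no longer passed with median-of-ratios scaling (-0.44, limma adjusted p = 0.192) or when uninduced replicate 1 or any induced library was left out. Ncapg2 was at 6.94 to 9.95 TPM and 1.62 to 5.74 TPM (log2 change -1.02, limma adjusted p = 0.133), and Ncapd3 at 9.94 to 11.8 TPM and 6.61 to 8.31 TPM (log2 change -0.49, limma adjusted p = 0.257). After median-of-ratios scaling these changes were -0.68 and -0.13, and that of Ncapg2 was -0.61 on the deposited TPM without induced replicate 1. Groups did not overlap, and were lower in induced cells, for all 3, as for 28.2% of all tested genes. The difference between condensin I and II was not tested.

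Of 8 regulators of cohesin through the cell cycle 1 was called lower, beside 10.2% of all tested genes, and 0 higher. Pds5b, which binds Rad21 and steadies cohesin, was at 21.3, 26.8 and 19.3 TPM in uninduced and 9.86, 9.39 and 11.4 TPM in induced libraries, without overlap. It fell by 1.06 (SE 0.24, limma adjusted p = 0.0227). Its change after median-of-ratios scaling was -0.67 (limma adjusted p = 0.0915), and the call was also lost without uninduced replicate 1 or 2 or induced replicate 1 or 2. The loader subunits Nipbl and Mau2 had changes of -0.16 and 0.04 and the acetyltransferase Esco1 one of 0.13, none of which passed. Nipbl ranged from -0.26 to -0.094 as each library was left out in turn. For the release factor Wapl, Pds5a, the deacetylase Hdac8 and the boundary factor Ctcf, changes lay between -0.55 and -0.45, none of which passed. After median-of-ratios scaling they lay between -0.15 and -0.05. With 1 library left out, Wapl ranged from -0.68 without induced replicate 3 to -0.21 without induced replicate 2, Pds5a from -0.66 without uninduced replicate 2 to -0.21 without uninduced replicate 3, and Hdac8 from -0.73 without uninduced replicate 2 to -0.29 without uninduced replicate 3. Ctcf alone of these 4 had non-overlapping groups, at 30.7 to 44.0 TPM and 22.7 to 26.1 TPM (limma adjusted p = 0.127).

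Of 6 genes that protect or cleave cohesin at division 3 were called lower, beside 10.2% of all tested genes, and 0 higher. Espl1, which encodes separase, the protease that cuts Rad21 at anaphase, was at 12.3, 4.54 and 8.04 TPM in uninduced and 1.45, 0.984 and 0.262 TPM in induced libraries. It fell by 2.26 (SE 0.45, limma adjusted p = 0.0132) and by 1.97 after median-of-ratios scaling (limma adjusted p = 0.0412). The call was lost without uninduced replicate 1 (-1.95, limma adjusted p = 0.0540). Both shugoshins, which guard centromeric cohesin, were low in induced cells: Sgo1 was at 2.79 to 4.54 TPM in uninduced and 0 to 1.05 TPM in induced libraries, and Sgo2a at 1.71 to 3.90 TPM and 0.157 to 0.379 TPM.

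Sgo1 fell by 1.85 (limma adjusted p = 0.0307) and Sgo2a by 1.68 (limma adjusted p = 0.0406). Neither passed after median-of-ratios scaling (limma adjusted p = 0.0713 and 0.0737), and leaving out any library but induced replicate 3 for Sgo1, or but uninduced replicate 3 for Sgo2a, ended the call. Esco2, the S-phase acetyltransferase of Smc3, had a change of -1.48 without overlap (limma adjusted p = 0.0645). It passed narrowly without the variance trend (limma adjusted p = 0.0481). Sororin (Cdca5) varied from 0.674 to 9.87 TPM in uninduced libraries and had a change of -1.38 (limma adjusted p = 0.190), which was -0.68 without uninduced replicate 3 and -2.03 without uninduced replicate 2. Securin (Pttg1) was at 3.11 to 14.6 TPM and 5.49 to 17.8 TPM, with overlapping groups and a change of 0.27 (limma adjusted p = 0.782).

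Of 11 mitotic chromosome partners and kinases of condensin 10 were called lower on the deposited TPM, beside 10.2% of all tested genes. With median-of-ratios scaling 7 were, beside 3.10%. Top2a, the topoisomerase that untangles mitotic chromosomes, was at 69.2, 65.0 and 57.0 TPM in uninduced and 10.1, 5.42 and 10.5 TPM in induced libraries, and fell by 2.78 (SE 0.27, limma adjusted p = 0.000572). Its paralogue Top2b, also used outside division, fell by 0.85 (limma adjusted p = 0.0256), with a change of -0.46 after median-of-ratios scaling (limma adjusted p = 0.172). The Top2b call held without uninduced replicate 3 but not when any other library was left out. Kif4, a kinesin that works beside condensin on chromosome arms, was at 4.95 to 8.90 TPM and 0 to 0.427 TPM and fell by 2.57 (limma adjusted p = 0.00534).

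The chromosomal passenger genes Aurkb, Birc5 and Cdca8 fell by 2.67, 3.00 and 2.44, and Incenp by 1.02. Incenp passed narrowly (limma adjusted p = 0.0482) and did not pass after median-of-ratios scaling (-0.63, limma adjusted p = 0.245) or when any library but induced replicate 2 was left out. The mitotic kinases Plk1 and Bub1 fell by 1.89 and 1.97. Plk1 did not pass with median-of-ratios scaling (limma adjusted p = 0.0783) or without uninduced replicate 1 or 2 or induced replicate 2 or 3. Bub1 did not pass without induced replicate 2 (-1.86, limma adjusted p = 0.0598). Cdk1, whose kinase phosphorylates condensin at mitotic entry, had a change of -1.43 (limma adjusted p = 0.0535). It passed without uninduced replicate 3 (-1.75, limma adjusted p = 0.0398). Mki67, which coats mitotic chromosomes, fell by 2.67. Groups did not overlap, and were lower in induced cells, for all 11, as for 28.2% of all tested genes.

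The Smc5/6 complex, another SMC machine, with roles in DNA repair, and the related Smchd1 held 8 genes, of which 0 were called by limma, beside 10.2% of all tested genes called lower. An unadjusted p under 0.05 was found for 3 of the 8 and for 27.9% of all tested genes. Their changes ranged from -0.79 to 0.19 with a median of -0.33, close to that of all tested genes. Those 3 were Nsmce1, Nsmce4a and Smc6. Nsmce1 was at 21.8 to 29.6 TPM in uninduced and 10.4 to 19.5 TPM in induced libraries, with a change of -0.79 (limma adjusted p = 0.0908). Nsmce4a was at 53.8 to 73.8 TPM and 33.8 to 42.8 TPM, with a change of -0.68 (limma adjusted p = 0.0529). Smc6, the ring partner of Smc5, was at 16.7 to 31.0 TPM and 14.4 to 17.2 TPM, with a change of -0.68 (limma adjusted p = 0.144). Without uninduced replicate 3, Smc6 and Nsmce4a passed (-0.96 and -0.79, limma adjusted p = 0.0396 and 0.0496). With all libraries and a mean of at least 5 TPM, 1 gene of this list was called lower. Groups did not overlap, and were lower in induced cells, for 3 of the 8 (Nsmce1, Nsmce4a and Smchd1), beside 28.2% of all tested genes. Smchd1 was at 22.9 to 25.1 TPM and 13.7 to 19.3 TPM. Smc5 itself overlapped, at 20.7 to 29.5 TPM and 21.03 to 27.4 TPM, as did Nsmce2 at 8.09 to 18.8 TPM and 9.48 to 13.02 TPM. Nsmce3 lay at 2.39 to 4.26 TPM over all libraries and Eid3 at 0.798 to 3.32 TPM. Of 4 meiotic cohesin genes, Smc1b and Rad21l were listed at 0 in all libraries and Stag3 at 0 to 0.584 TPM. Rec8, the meiotic kleisin, was at 14.2 to 22.1 TPM and 8.67 to 19.2 TPM (log2 change -0.38, limma adjusted p = 0.468). Its change ranged from -0.63 to -0.10 as each library was left out in turn.

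**Figure D4:**
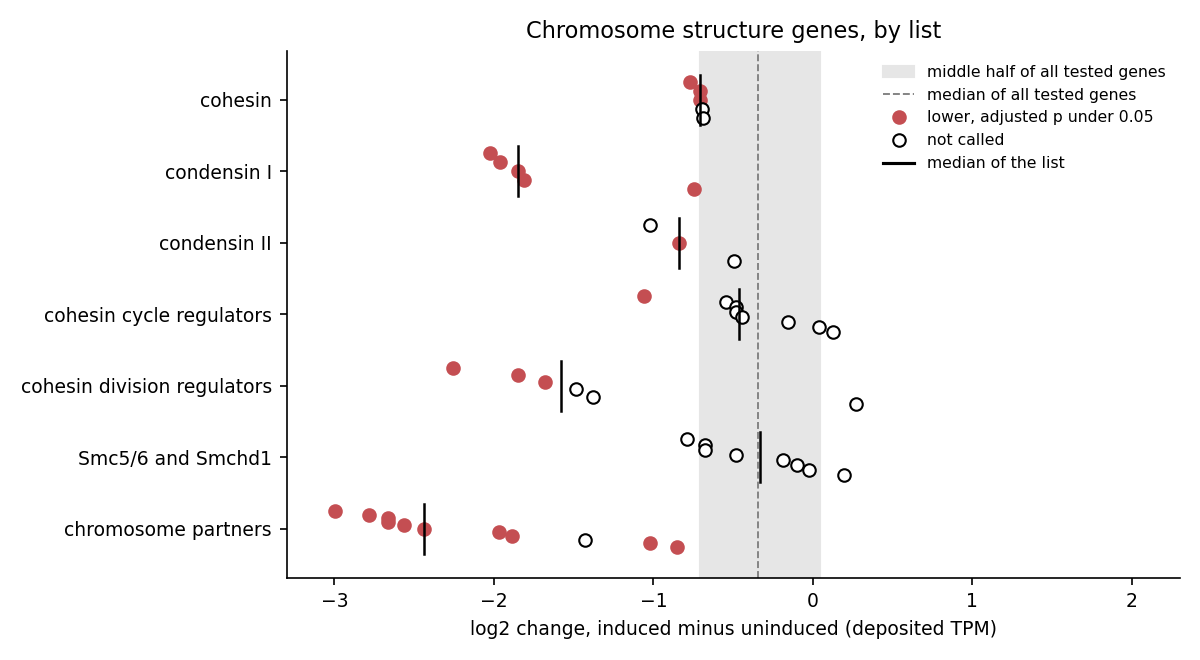
Log2 change on the deposited TPM of each tested gene, by list, with filled points for genes called lower and a bar at the median of each list. The grey band and dashed line give the middle of all tested genes. By list median the chromosome partners and condensin I lie furthest left, though the division regulator Espl1 lies left of every condensin I member. The Smc5/6 genes spread around the median of all genes.

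The tested genes whose centred log2(TPM + 1) profile over the 6 libraries lay nearest to the mean condensin I profile were Morc4, Dut and Lrpprc, at Euclidean distances of 0.317, 0.346 and 0.356 log2 units. Their log2 changes were -1.83, -1.57 and -1.47. Nearest to the mean cohesin profile were Ik, Anp32a and Gm14586, at 0.0529, 0.0750 and 0.0998, with log2 changes of -0.70, -0.76 and -0.73. With 6 libraries in 2 groups, such distances mainly reflect the difference between the groups.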

How the data were processed

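Total RNA from sorted haematopoietic stem cells was turned into strand-specific libraries for very low input and read from both ends, per the labels' protocols. The values are TPM, deposited by the authors in 1 table with a column per library. Per the submitters' processing notes, bcl2fastq, HISAT2, StringTie and DESeq2 and the GRCm38 build were used. Versions, annotation and read filters are not given in the sources used here. The percent GC per gene comes from the deposited table. Rows were summed per gene ID, as 5025 of 60496 rows repeat an ID. TPM keeps no depth, so no counting interval can be given.

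Groups came from the titles. log2(TPM + 1) of the 13470 genes averaging 1 TPM or more was fitted with limma 3.58.1 in R 4.3.3 (empirical Bayes, variance trend), two-sided, with Benjamini-Hochberg adjustment over all tested genes and a threshold of 0.05. A log2 change on this scale understates changes of low genes. Positions are from GENCODE (GRCm38) by gene ID. Fold values are ratios of mean TPM. Their scaled values and those without a library were added after seeing the data. All 10 members and every tested partner gene are named, with the 3 nearest profiles to each complex. The members and lists were chosen with earlier results of these data known. Alternatives covered the pseudocount, filter, scaling, variance trend, replicate block and each library left out.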

Additional observations from a re-analysis of the deposited data

How the results depend on the processing

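TPM holds no depth, so what depth limits could not be assessed. The medians of both complexes stayed negative under each alternative, and Smc2 and Ncapd2 were called lower in all. The 1549 genes called became 752 without the expression filter, 806 with median-of-ratios scaling, 814 with quantile normalization, 886 when rescaled to nuclear protein-coding genes, 767 without the variance trend and 902 with the replicate block. In that order, the 5 condensin I calls became 2, 2, 2, 3, 3 and 3, and were 3 at a mean of at least 5 TPM, which left Ncapg and Ncaph untested. The 3 cohesin calls became 0 with each of the 3 scalings, without the variance trend and with the replicate block. They became 4 at a mean of at least 5 TPM, where Smc3 also passed. The 15 partner calls became 8, 8 and 9 with the scalings and 9 with the replicate block. Leaving out each library gave 611 to 1276 genes, 2 to 5 condensin I, 0 to 3 cohesin and 7 to 16 partner calls.

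The condensin I median of -1.85 was -1.002 with a pseudocount of 5, and the cohesin median of -0.71 was -0.31, -0.32 and -0.29 with the scalings. The log2 change of the ratio of condensin I to cohesin, -0.59, was -1.35 as a mean of log2 TPM and -1.46 without Smc4, a choice made after seeing the data. Both give less weight to Smc4. With median-of-ratios scaling, quantile normalization and protein-coding rescaling, Nipbl turned to 0.23, 0.25 and 0.27, Smc5 to 0.29, 0.30 and 0.33, Nsmce2 to 0.19, 0.17 and 0.23 and Nsmce3 to 0.29, 0.29 and 0.38. Rec8 turned to 0.0036 and 0.031 with the first and last of these. With libraries left out, Mau2 ranged from -0.14 to 0.27, Esco1 from -0.061 to 0.48, Pttg1 from -0.22 to 0.76, Smc5 from -0.23 to 0.013, Nsmce2 from -0.51 to 0.0499, Nsmce3 from -0.14 to 0.14 and Eid3 from -0.19 to 0.44. None of these passed, and apart from the scalings the cause was not tested. Same-numbered libraries are not stated to be related, and their deviations correlated at 0.021, -0.015 and 0.017 across genes, so the replicate block is not read as a paired analysis. Not every library correlated best with its own number.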
